A study of Homo sapiens
Mus musculus with 3 samples.

Results

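The 10 genes described here encode enzymes of glycolysis and of the lactate step that follows it, in 2 human T-cell leukemia lines. They were chosen by name, with earlier results of these data known, as HK2, GPI, ALDOA, TPI1, GAPDH, PGK1, PGAM1, ENO1, PKM and LDHA. Their rows were found by the Ensembl identifier with the human prefix of the tables, in that order ENSG00000159399, ENSG00000105220, ENSG00000149925, ENSG00000111669, ENSG00000111640, ENSG00000102144, ENSG00000171314, ENSG00000074800, ENSG00000067225 and ENSG00000134333. All 10 had 1 row, out of 32738 human genes and 60736 human and mouse genes in the read tables. All 10 were also in the UMI table. Every gene had at least 1 read in the human wells of each library.

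Glycolysis is the chain of cytosolic reactions that turns glucose into pyruvate and yields ATP without oxygen. Proliferating T cells and leukemia lines are known for high glycolytic flux, with much of the pyruvate reduced to lactate and exported. Several of these enzymes are abundant in almost every cell, and their transcripts are often used as reference genes. Most of them have processed pseudogenes, copies of the spliced transcript in the genome, so a short read from the 3′ end may match more than 1 place and the level of such a gene depends on how the counting treats that read.

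The series holds 3 libraries from the ICELL8 cx, an instrument that places cells in nanowells, finds the wells with a single cell by imaging and gives the cDNA of each well a known barcode. Equal parts of 4 established lymphocyte lines went into every library, the human T-cell lines Jurkat and TALL-104, the mouse T-cell line EL4 and the mouse B-cell hybridoma IVA12, with no treatment named in the labels. The group 3'DE, 2 libraries, followed the official protocol for 3′ differential expression, in which cDNA is amplified while the barcoding primers are still present. The group 3'DE-UMI, 1 library, here named by its group alone, followed a modified protocol in which reverse transcription was kept apart from amplification and the primers were digested by an exonuclease, so that unique molecular identifiers (UMIs), random tags that mark single cDNA molecules, could be counted. By the study's sample summary, 3'DE replicate 2 and the 3'DE-UMI library came from the same cell mixture and 3'DE replicate 1 from another. Nothing stated that the 3'DE replicates came from separate cultures.

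After wells with few reads or with a mixture of species were left out, 533 human wells remained in 3'DE replicate 1, 484 in 3'DE replicate 2 and 557 in 3'DE-UMI. These wells held 10810654, 47876090 and 15384297 human reads, a median of 20381, 33355 and 15948 per well. Reads were spread unevenly, and the deepest 10% of human wells held 21.4% of the reads in 3'DE replicate 1, 55.8% in 3'DE replicate 2 and 40.2% in 3'DE-UMI. The median share of mouse reads in human wells was 0.241%, 4.06% and 1.58%. Replicate 2 therefore stood apart from replicate 1 in depth and in stray reads. Well barcodes come from 1 common set, so libraries shared between 387 and 481 barcodes of kept wells, and 83 to 97 of human wells. Shared barcodes mark the same position and not the same cell.

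Together the 10 glycolysis genes took up about 1 read in 100 with the modified protocol and fewer with the official one. Their summed share of human reads was 0.495% in 3'DE replicate 1, 0.401% in 3'DE replicate 2 and 1.04% in 3'DE-UMI. 3'DE-UMI was above both others, by 2.33-fold over their mean on the log scale, a log2 difference of 1.22 against an SD of 0.22 between the 3'DE replicates. The median over wells gave the same order, with 0.461%, 0.411% and 0.970%. No test was run on these shares, because the exact permutation p for 1 value set against 2 is at least 0.33. ENO1, TPI1, PGK1 and LDHA held most of the reads of the 10 genes in every library, and HK2 the fewest, with 31, 312 and 242 reads. Counts were made at the 3′ end and were not divided by transcript length, so levels were not compared between genes.

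The genes are described next in the order of the pathway, as CPM, a gene's reads after every library was brought to one common total of human reads, summed over the human wells of 3'DE replicate 1, 3'DE replicate 2 and 3'DE-UMI. HK2, the hexokinase that traps glucose in the cell by phosphorylation, had a CPM of 2.87, 6.52 and 15.7. 3'DE-UMI was highest, but the 3'DE replicates themselves differed by 2.27-fold and 1 well gave 26.0% of the HK2 reads of 3'DE replicate 2. GPI, which isomerises glucose phosphate to fructose phosphate, had a CPM of 62.4, 57.9 and 144. The 3'DE replicates lay close together and 3'DE-UMI was at 2.39 times their mean CPM.

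ALDOA, the aldolase that splits the fructose bisphosphate into 2 trioses, had a CPM of 516, 445 and 182. Here the order turned around, and 3'DE-UMI was below both 3'DE replicates. TPI1 converts the trioses into each other, and its CPM was 1210.5, 996 and 1258. These 3 values lay close together, with 3'DE-UMI just above the range of the others.

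GAPDH, the dehydrogenase that oxidises the triose phosphate and a common reference gene, had a CPM of 99.5, 81.8 and 491. 3'DE-UMI was at 5.42 times the mean CPM of the 3'DE replicates, the largest ratio among these genes. PGK1, the kinase of the first ATP-forming step, had a CPM of 609, 440.0 and 2022. PGAM1, the mutase that moves the phosphate group, had a CPM of 102, 77.4 and 45.5. As with ALDOA, 3'DE-UMI was the lowest for PGAM1, while for PGK1 it was the highest.

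ENO1, the enolase, had a CPM of 1711, 1041 and 3634. PKM, the pyruvate kinase of the last ATP-forming step, had a CPM of 144, 109 and 327. LDHA, the lactate dehydrogenase subunit that favours lactate formation, had a CPM of 494, 753 and 2245. For all 3 genes 3'DE-UMI was above both 3'DE replicates. In total it was above both for 8 genes and below both for ALDOA and PGAM1. Among the 6674 human genes with a mean CPM of at least 10, 3'DE-UMI was above both for 36.4% and below both for 47.9%. Between the 3'DE replicates, 8 of the 10 genes were lower in replicate 2, and HK2 and LDHA were higher.

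**Figure D1:**
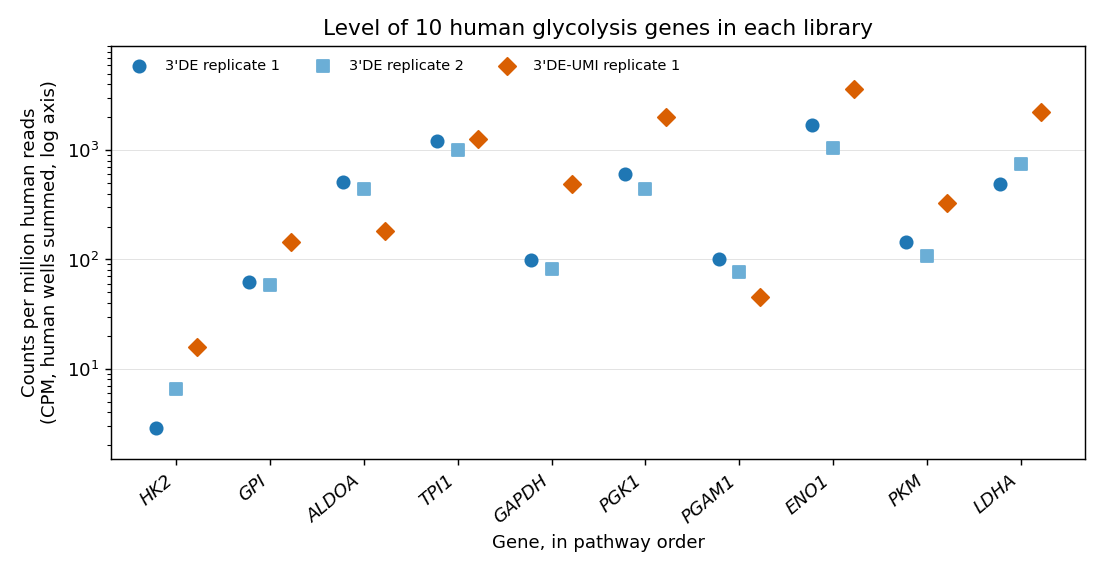
CPM (reads scaled to a fixed total of human reads, log axis) of the 10 genes in pathway order, 1 point per library, human wells summed. 3'DE-UMI (diamonds) lies above both 3'DE replicates for 8 genes and below both for ALDOA and PGAM1; TPI1 differs least.

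The comparison of the protocols asks whether the chemistry changes what is read of each transcript, since the same lines were loaded. Of the 10 genes, 7 passed the threshold in edgeR's quasi-likelihood test on summed reads, 6 of them higher and 1 lower in 3'DE-UMI. Over all 13896 human genes tested, 15.1% passed, 6.49% higher and 8.61% lower. The median log2 difference was 1.55 for the 10 genes and -0.14 for all genes tested. Adjusted p-values here are from edgeR, with the Benjamini-Hochberg method applied to all genes of the fit. Each SE from edgeR was worked back from the test, as the absolute log2 difference over the square root of F. It is not a spread measured between 3'DE-UMI libraries. GAPDH rose by 2.60 on the log2 scale (SE 0.35, adjusted p 1.66e-05), PGK1 by 2.11 (SE 0.28, adjusted p 1.44e-05) and LDHA by 1.99 (SE 0.29, adjusted p 5.35e-05).

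The other genes past the threshold came from both the upper and the lower part of the pathway. ENO1 rose by 1.57 (SE 0.26, adjusted p 0.000202), PKM by 1.54 (SE 0.36, adjusted p 0.00450) and GPI by 1.41 (SE 0.40, adjusted p 0.0171). ALDOA fell by 1.24 (SE 0.36, adjusted p 0.0198). These differences were larger than the spread between the 3'DE replicates, whose own ratios for the 10 genes stayed within 0.96 on the log2 scale. HK2 had a log2 difference of 1.86 (SE 0.74, adjusted p 0.0934), PGAM1 of -0.82 (SE 0.45, adjusted p 0.231) and TPI1 of 0.35 (SE 0.28, adjusted p 0.421), and none of these passed.

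The fit had 1 residual degree of freedom among libraries, and its single 3'DE-UMI value had to be given the same variability as the official protocol. With each well weighted equally and limma in place of edgeR no gene passed, member or not, with 3543 genes and 8 of the 10 at an unadjusted p under 0.05. The ALDOA call was lost with wells called mixed from 5% of the other species (log2 difference -1.17, adjusted p 0.0548) and in wells with under 1% mouse reads (-1.17, adjusted p 0.113), at nearly the same size. HK2 passed when the deepest 10% of wells were left out, with a log2 difference of 2.65 (adjusted p 0.0186). Cell mixture and protocol were partly confounded. Set against 3'DE replicate 2 alone, which shared its mixture, 3'DE-UMI had 6.003-fold more GAPDH CPM, 4.60-fold more PGK1, 3.49-fold more ENO1, 3.01-fold more PKM and 2.98-fold more LDHA. Its ALDOA CPM was 0.410 of that in replicate 2. Every direction was that of the pooled comparison.

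**Figure D2:**
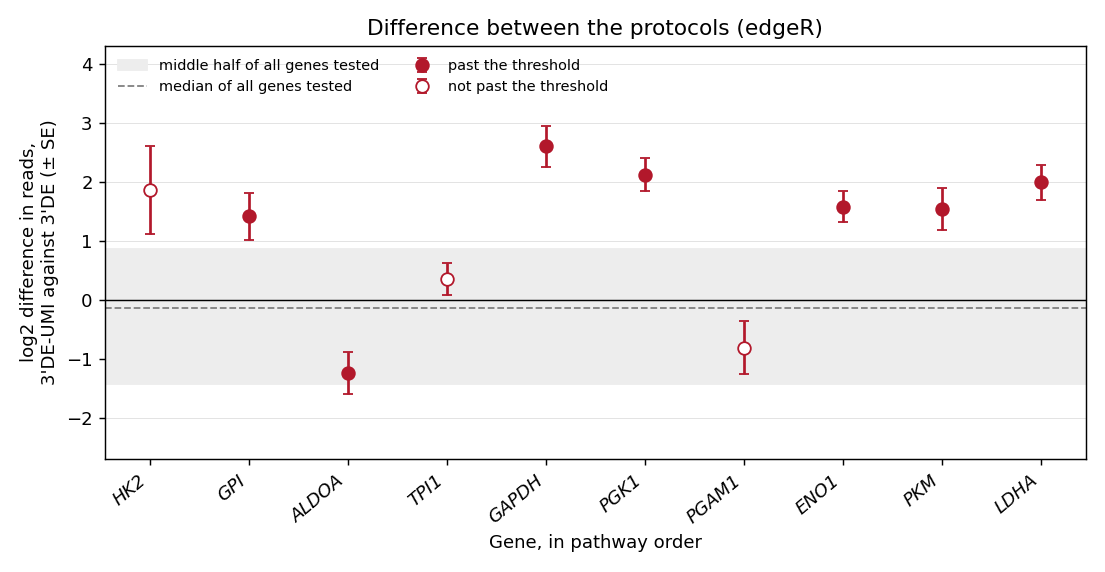
The log2 difference in reads of each gene between 3'DE-UMI and the 3'DE replicates, from edgeR, with a standard error worked back from the F statistic. Filled points passed the threshold, the grey band is the interquartile range of all human genes tested and the dashed line their median. GAPDH, PGK1 and LDHA lie highest, at 2.60, 2.11 and 1.99, and ALDOA lies at -1.24.

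Counts of UMIs, which stand for molecules and not for reads, were available for 3'DE-UMI. Its 557 human wells held 1110228 human UMIs, and the 10 genes took up 1.86% of them. GAPDH alone made up 49.7% of the UMIs of the 10 genes but 4.74% of their reads. Without GAPDH the share of the remaining 9 genes was 0.936% of all human UMIs.

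For GAPDH the read table and the UMI table did not give one picture. The UMI table held 10264 GAPDH UMIs in the human wells, which made it rank 2 among human genes. In the read table the same wells held 7558 GAPDH reads, rank 317. That is 0.736 reads per UMI, where reads should be at least as many as the molecules they come from if both tables count the same reads. Among 1530 human genes with at least 100 UMIs the median was 16.4 reads per UMI, with quartiles at 13.2 and 18.6, and 25 of them, 1.63%, had fewer reads than UMIs. GAPDH had more UMIs than reads in 443 of the 557 wells. In 69 wells it had a UMI and no read, and in no well a read without a UMI. Both tables came from the same library through different software and aligner versions. GAPDH read levels in all 3 libraries come from the software with the lower count, and the part of this in the GAPDH values was not tested.

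The other 9 genes had between 5.60 and 20.2 reads per UMI. HK2 had 12 UMIs and 20.2 reads per UMI, PGK1 had 1614 UMIs and 19.3, and ENO1 had 3722 UMIs and 15.02. LDHA, with 2367 UMIs, had 14.6 reads per UMI, and TPI1, with 1371 UMIs, had 14.1. PGK1 lay above the upper quartile of human genes with at least 100 UMIs, and ENO1, LDHA and TPI1 between the quartiles. HK2 also exceeded the upper quartile, but with 12 UMIs it was not among those genes. PKM with 546 UMIs had 9.21 reads per UMI, ALDOA with 334 had 8.40, GPI with 300 had 7.37 and PGAM1 with 125 had 5.60. The last 4 were below the lower quartile of genes with at least 100 UMIs, and PGAM1 was above 5.42% of those genes only.

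**Figure D3:**
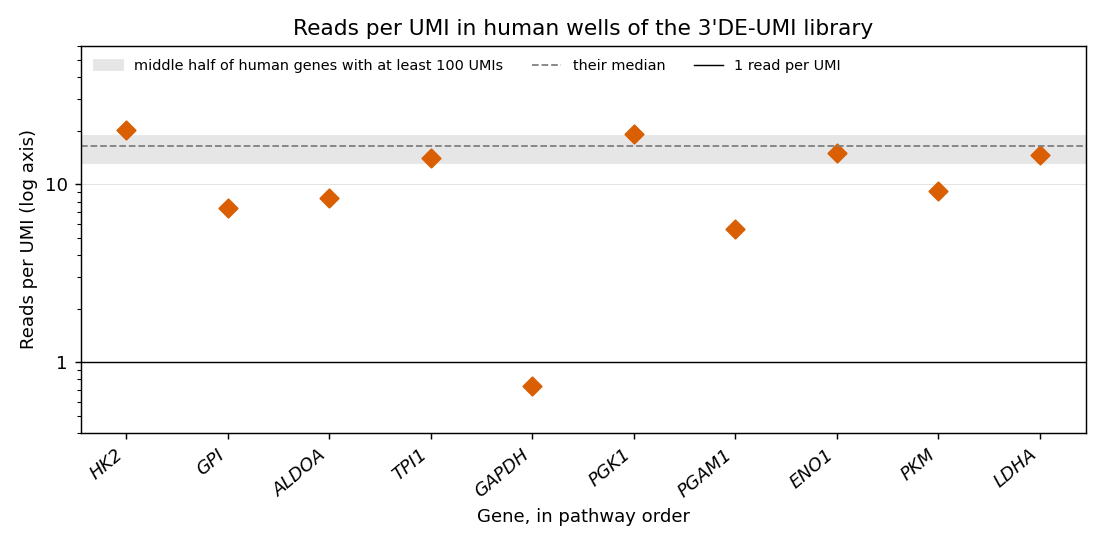
Reads per UMI (log axis) of each gene in the human wells of 3'DE-UMI; the grey band is the interquartile range, 13.2 to 18.6, of human genes with at least 100 UMIs, and the dashed line their median, 16.4. GAPDH is the one gene of the 10 under 1 read per UMI, at 0.736, and GPI, ALDOA, PGAM1 and PKM lie below the band.

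The protocol comparison was repeated with UMIs of 3'DE-UMI in place of its reads. ALDOA then had a log2 difference of -0.54 (edgeR, adjusted p 0.413), no longer past the threshold, and PGAM1 turned from -0.82 to 0.46 (adjusted p 0.623). The higher level of GAPDH, PGK1, ENO1, PKM, LDHA and GPI in 3'DE-UMI passed with UMIs too. GAPDH reached a log2 difference of 6.80. This fit sets molecules counted by one software against reads counted by another.

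Per well, UMIs were few for most of the genes. The mean was 18.4 ± 22.6 UMIs of GAPDH (SD over 557 wells of 1 library), 6.68 ± 8.29 of ENO1, 4.25 ± 5.68 of LDHA, 2.90 ± 3.89 of PGK1 and 2.46 ± 3.43 of TPI1. The SD was above the mean for each of these genes. These counts were not scaled to depth, and the deepest 10% of human wells held 40.2% of the reads of this library. The part of depth in this spread was not tested. GAPDH had a UMI in 97.7% of human wells (95% exact binomial interval 96.0 to 98.8), while PGAM1 had one in 16.5% (13.5 to 19.9) and HK2 in 2.15% (1.12 to 3.73).

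Detection in a well depends on depth, so each well was thinned to 5000 human reads, which kept 440, 444 and 498 wells. At that depth a well had a read of a median of 6, 5 and 5 of the 10 genes in 3'DE replicate 1, 3'DE replicate 2 and 3'DE-UMI. The median number of human genes of all kinds was 1575.5, 1359 and 685. The median number of glycolysis genes per well was thus 5 or 6 in each library, while the median number of all genes was lowest in 3'DE-UMI. This contrast was not tested.

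ENO1 was detected in nearly all wells of each library, in 94.5% (95% exact binomial interval 92.0 to 96.5), 91.2% (88.2 to 93.7) and 96.0% (93.9 to 97.5). ALDOA was detected in 82.5% (78.6 to 85.9) and 81.1% (77.1 to 84.6) of wells with the official protocol and in 26.5% (22.7 to 30.6) with the modified one. TPI1 showed the same order, with 93.4%, 93.2% and 74.1%, although its CPM was similar in the 3 libraries. GAPDH went the other way, with 32.7% (28.4 to 37.3), 27.7% (23.6 to 32.1) and 76.3% (72.3 to 79.97).

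PGAM1 was detected in 34.3%, 26.6% and 10.8% of thinned wells, lowest in 3'DE-UMI. PGK1 was detected in 80.0%, 67.8% and 77.9%, so 3'DE-UMI lay between the others. For PKM the shares were 36.1%, 24.1% and 38.2%, for LDHA 77.3%, 83.8% and 85.3%, for GPI 16.8%, 16.7% and 26.1%, and for HK2 1.14%, 1.58% and 2.41%. In sum 3'DE-UMI was above both 3'DE replicates for 6 genes and below both for ALDOA, TPI1 and PGAM1. Of the 6 genes above, GPI and GAPDH had an interval in 3'DE-UMI clear of both others, while those of HK2, ENO1, PKM and LDHA overlapped with at least 1 of them. At 10000 reads per well it was above both for GPI and GAPDH only and below both for 4 genes, and without thinning above both for 2 and below both for 6.

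**Figure D4:**
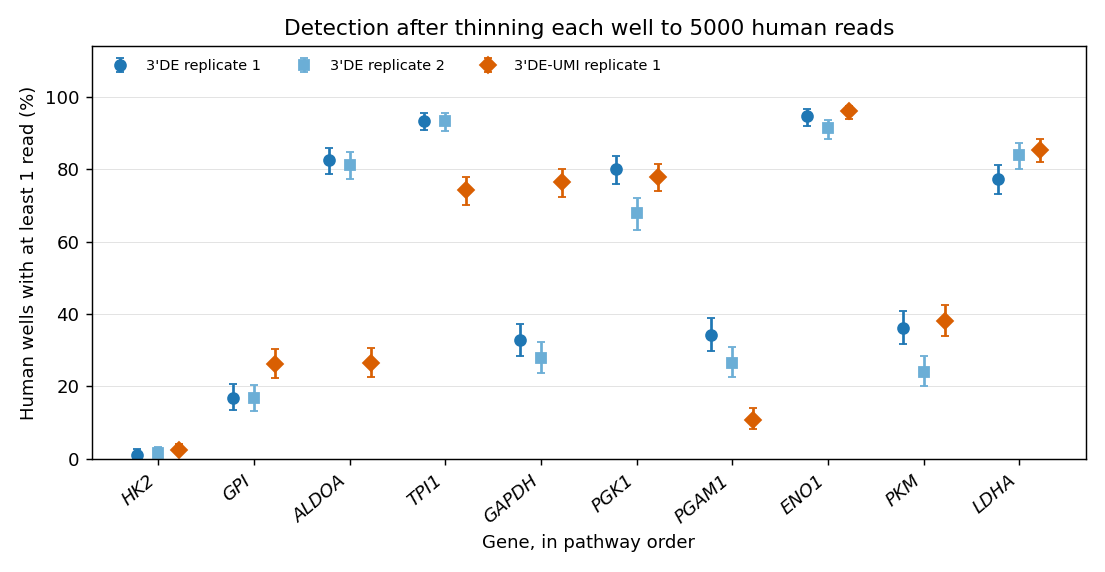
Percent of human wells with at least 1 read of each gene after thinning to 5000 human reads per well, with 95% exact binomial intervals that cover counting error only. ALDOA, TPI1 and PGAM1 are detected less in 3'DE-UMI (26.5%, 74.1% and 10.8%), and GAPDH is detected more (76.3%).

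Mouse wells give a background for this detection, since a single mouse cell holds no human transcript. The source of their human reads was not tested. Over the 922, 773 and 700 mouse wells, the median number of human reads per well was 75.5, 522 and 96.5. ENO1 had a read in 9.87%, 41.9% and 15.7% of mouse wells, TPI1 in 5.75%, 45.5% and 7.86%, and LDHA in 3.47%, 36.9% and 8.14%. All of these were below the shares in human wells, which without thinning were at least 71.6% for these 3 genes. Human wells held a median of 20381, 33355 and 15948 human reads, and mouse wells were called by their few human reads. Lower shares in mouse wells were therefore set in advance by depth, and no enrichment follows from them. HK2 had a read in 0 mouse wells of 3'DE replicate 1 and of 3'DE-UMI, which allows a share of up to 0.325% and 0.429%, and in 0.129% in 3'DE replicate 2. It had a read in 16, 29 and 15 human wells, or 3.002%, 5.99% and 2.69%. These shares were not matched for depth either, so they do not set HK2 apart from stray reads.

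The share of the 10 genes among human reads in mouse wells was 1.12, 1.32 and 0.832 times their share in human wells. Single genes went further apart. ALDOA stood at 2.02 times its level in human wells in 3'DE replicate 2 from 795 reads. GPI stood at 3.06 times in 3'DE replicate 1 from 20 reads and at 1.92 times in replicate 2 from 98 reads, and PKM at 0.323 times in 3'DE-UMI from 13 reads.

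Human wells fell into 2 clusters, made from genes other than these 10. No table paired identifiers with symbols, so the clusters could not be tied to Jurkat or TALL-104 by markers and are called by number. Human cluster 1 held 407, 448 and 530 wells and human cluster 2 held 126, 36 and 27 wells in 3'DE replicate 1, 3'DE replicate 2 and 3'DE-UMI. Wells of cluster 2 were shallow, with a median of 4459.5, 9277 and 4808 human reads against 25638, 36444.5 and 17358.5 in cluster 1. Cell type, RNA content and cell quality cannot be told apart in this split. In cluster 1 alone the protocol comparison again called 7 of the 10 genes, where 12.3% of all genes tested passed.

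The 10 genes took up a smaller share of reads in cluster 2 of every library. The share was 0.505%, 0.405% and 1.04% in cluster 1 and 0.329%, 0.274% and 0.679% in cluster 2. In 3'DE replicate 1 all 9 genes with a read in cluster 2 were lower there, in 3'DE replicate 2 it was 8 of 9, and in 3'DE-UMI 5 of 7. Over all 10735 human genes tested, the median log2 difference of cluster 2 against cluster 1 was -1.87, so lower values in cluster 2 were the rule. With size factors by relative log expression in place of TMM that median was -1.66. The median of the 10 genes was -1.20.

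LDHA was the only one of the 10 to pass the threshold, where 3.45% of all genes tested did and 2.23% did so with a lower level in cluster 2. Its CPM in cluster 1 and cluster 2 was 516 and 149 in 3'DE replicate 1, 768 and 223 in 3'DE replicate 2, and 2271 and 71.9 in 3'DE-UMI. Cluster 2 was lower in all 3 libraries, and its highest value lay below the lowest of cluster 1. LDHA fell by 2.88 on the log2 scale (SE 0.64, edgeR with library as a block, adjusted p 0.000660). The ratio of cluster 1 to cluster 2 was 3.47 and 3.44 in the 3'DE replicates and 31.6 in 3'DE-UMI, where cluster 2 had 13 reads of LDHA in 4 of 27 wells. In UMIs of that library LDHA stood at 21.5 per 10000 in cluster 1 and at 2.34 in cluster 2, from 3 UMIs. A single well gave 11.7%, 56.1% and 61.5% of the LDHA reads of cluster 2 in 3'DE replicate 1, 3'DE replicate 2 and 3'DE-UMI. Among all genes tested the LDHA difference lay at percentile 35.5, within the bulk of genes. The call was lost without 3'DE replicate 1 (-3.60, adjusted p 0.546), without 3'DE-UMI (-1.58, adjusted p 0.215) and in DESeq2 (-2.69, adjusted p 0.0804).

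The other glycolysis genes did not pass in edgeR, which does not show that their levels were equal. PKM, PGAM1 and HK2 had few reads in cluster 2, at most 47 in any library. PKM had a CPM of 148 and 74.3 in 3'DE replicate 1 and 111 and 24.3 in 3'DE replicate 2. In 3'DE-UMI it had no read in cluster 2, against a CPM of 331 in cluster 1. A floor of 3 reads gives no firm fold limit here, since PKM had 9.21 reads per UMI. In UMIs it stood at 4.98 per 10000 in cluster 1 and at 0 of 12809 in cluster 2. PGAM1 was at 107 and 28.5 and at 79.1 and 20.1 in the 3'DE replicates, and also had no read in cluster 2 of 3'DE-UMI. With 1.14 UMIs per 10000 in cluster 1, that 0 was not distinguishable from its level there. HK2 had no read in cluster 2 of any library. In 3'DE replicate 1 and 3'DE-UMI that was not distinguishable from its level in cluster 1 at this depth. In 3'DE replicate 2 a floor of 3 reads would set it at least 3.12-fold lower, which is no firm limit either. There 29 of 448 cluster 1 wells, 6.47%, held the HK2 reads, and 1 well gave 26.0% of them. The exact binomial interval for 0 of 36 cluster 2 wells reached 9.74%, so by wells this 0 was not distinguishable from cluster 1.

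ENO1 and TPI1 had the smallest fitted differences between the clusters. ENO1 was at 1747 and 1141 in 3'DE replicate 1, at 1038 and 1152 in 3'DE replicate 2 and at 3639 and 3223 in 3'DE-UMI. TPI1 was at 1224 and 994, at 1003 and 786, and at 1257 and 1327 in the same order, so that each gene had 1 library with the higher value in cluster 2. The fitted log2 difference of ENO1 was -0.43 (SE 0.36, edgeR adjusted p 0.507), and that of TPI1 -0.40 (SE 0.46, adjusted p 0.647). With UMIs for 3'DE-UMI GAPDH also passed, at -1.44 (adjusted p 0.0192), from 93.0 UMIs per 10000 in cluster 1 and 42.9 in cluster 2 of that library.

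**Figure D5:**
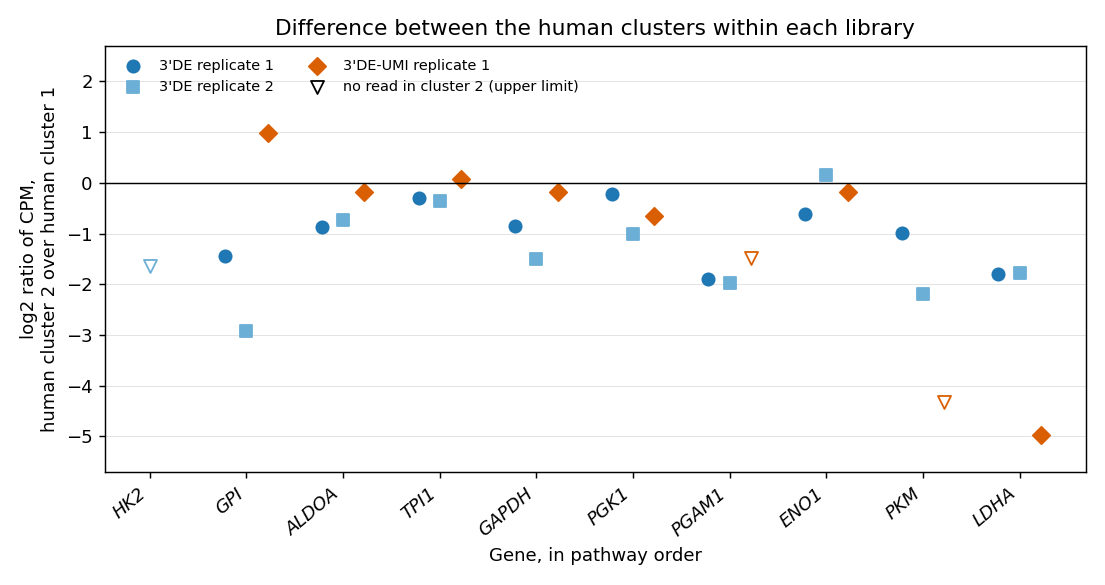
The log2 ratio of CPM in human cluster 2 over human cluster 1 for each gene, 1 point per library; open triangles mark genes with no read in cluster 2, drawn at the limit that 3 reads allow, and HK2 is drawn for 1 library only. The triangles take reads as independent counts, which reads of 1 molecule are not, so they are no firm limit. ALDOA, GAPDH, PGK1, PGAM1, PKM and LDHA lie below 0 in every library, PGAM1 and PKM as triangles in 3'DE-UMI. GPI and TPI1 lie above 0 in 3'DE-UMI only, and ENO1 in 3'DE replicate 2 only.

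Within cluster 1 the share of the 10 genes changed little with depth in 3'DE replicate 1 and 3'DE-UMI and was lower in the deepest wells of 3'DE replicate 2. From the shallowest to the deepest of 3 equal sets of wells it was 0.502%, 0.506% and 0.506% in 3'DE replicate 1, 0.461%, 0.462% and 0.394% in 3'DE replicate 2, and 0.986%, 1.06% and 1.04% in 3'DE-UMI. In cluster 1 wells with under 1% mouse reads it was 0.468%, 0.384% and 1.02%, and in the remaining ones 0.556%, 0.425% and 1.06%. The share was thus lower in the wells with few mouse reads in every library. 3'DE-UMI was above both 3'DE replicates in each of these sets. Single genes could move more than the sum. From the shallowest to the deepest set the CPM of ALDOA was 587, 603 and 422 in 3'DE replicate 2, and 536, 514 and 539 in 3'DE replicate 1.

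The 10 genes varied together only weakly from well to well. Over 390, 418 and 485 wells of cluster 1 thinned to 5000 reads, the median Spearman correlation of the 45 pairs was 0.057, 0.057 and 0.035. The highest was 0.309 in 3'DE replicate 1, for ALDOA and ENO1. That pair stood at 0.203 in 3'DE replicate 2 and at -0.021 in 3'DE-UMI. For the 5 genes detected in at least 50% of wells the median was 0.172, 0.160 and 0.058, beside 0.009, 0.016 and 0.040 over all pairs of human genes detected as often. These wells share a library, a depth and stray reads, so the correlations are a description. Of 237 other human genes detected in at least 50% of wells in each library, the one whose reads followed the sum of the 10 genes most closely was ENSG00000100316, with a mean correlation of 0.179 over the 3 libraries. Next came ENSG00000075624 with 0.177. In 3'DE-UMI alone their correlations were 0.036 and -0.005.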

How the data were processed

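Single-cell RNA-seq by 3′ end counting was measured in 3 libraries of a mixture of 4 cell lines, and the titles gave each library its group. The deposited values were raw counts. The authors made the read count tables with mappa and STAR 2.7.0b against hg19 and mm10 joined into 1 reference, and the UMI count table of the 3'DE-UMI library with the Drop-seq tools and STAR 2.4.2a, and a Cell Ranger 1.2.0 entry stands in the submitters' processing notes. The study describes downsampling of reads, and whether the deposited tables had passed through it was not known. No column of values was left without a sample (0).

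Wells with at least 1000 reads and 200 genes were kept and called human when mouse genes held under 10% of reads. No doublet caller was run, as wells had been picked by imaging. Reads were summed over wells of each library, since cells are not replicates, and tested in edgeR 4.0.16 (filterByExpr, TMM, quasi-likelihood F-test, two-sided, adjusted p under 0.05 over all human genes tested, R 4.3.3). The cluster comparison had the library as a block, because both sums came from the same library. Wells were clustered with scanpy 1.11.5 (scaling to 10000, 1000 variable genes, 20 principal components, 15 neighbours, Leiden resolution 0.1), on a seeded set of 16365 genes without the 10 members, and 99.7% of wells kept their cluster when the other 16373 genes were used. The fits were tested on simulated data. There the cluster fit recovered few of the changed genes, and the protocol fit missed many. A gene that did not pass in either may still differ. Thinning drew 5000 reads per well at random. Exact binomial intervals and the floor of 3 counts for a 0 cover counting error only, and p-values measure the spread between these libraries, which may be technical.

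Alternatives were DESeq2 1.42.0, relative log expression factors, no filter, limma 3.58.1 on log2(CPM + 1) averaged over wells, other well filters, UMI counts and leaving out each library. The rule named all 10 members, and from other human genes the 5 most correlated with their sum, of which 2 are given. The members and lists were chosen with earlier results of these data known. A list of other pathway genes and markers of the lines were planned but not used, since no table used here paired Ensembl identifiers with symbols.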

Additional observations from a re-analysis of the deposited data

Results flagged for a closer look

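For 2 of the 10 genes the difference between the human clusters pointed one way in 3'DE-UMI and the other way in both 3'DE replicates. GPI had a log2 ratio of cluster 2 over cluster 1 of 0.99 in 3'DE-UMI, from 51 reads in 5 of 27 cluster 2 wells. A single well gave 39.2% of these reads. In UMIs GPI stood at 4.68 per 10000 in cluster 2, from 6 UMIs in 4 wells, and at 2.68 in cluster 1. In the 3'DE replicates its log2 ratio was -1.45 and -2.92, from 15 and 11 reads. TPI1 had a ratio of 0.078 in 3'DE-UMI against -0.30 and -0.35. Whether the protocols differ in these ratios was not tested, and the sums rest on 1 library with the modified protocol.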

How the results depend on the processing

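The count of 7 glycolysis genes past the threshold between the protocols stayed between 6 and 8 under 10 alternatives and was 0 with each well weighted equally in limma, which called 0 genes in all. Over all genes the protocol count of 2098 moved to 1105 with UMI counts and to 1142 in wells under 1% mouse reads. PGAM1 reversed with UMI counts, to 0.46. Between the clusters the count of 1 gene was 0 in DESeq2 and 2 with UMI counts, and ranged from 0 to 1 when each library was left out. All genes called there numbered 370, and 1593 in DESeq2, 235 in wells of at least 5000 reads, 239 with wells called mixed from 5%, 932 with UMI counts, 167 in wells under 1% mouse reads, and from 23 to 460 without each library, 23 without 3'DE replicate 1. Without the replicate block the clusters gave 1208 genes and still 1 member. No paired analysis was possible for the protocols because 3'DE-UMI had 1 library only. Leaving out a 3'DE replicate there leaves 1 library against 1, with no test. The log2 difference in the summed share, 1.22, was 2.06 with UMI counts and 1.07 to 1.37 without each 3'DE replicate. Genes detected less in 3'DE-UMI numbered 3, 4 at 10000 reads per well and 6 without thinning, and genes detected more numbered 6, and 2 in both of the last settings. At 10000 reads the median correlation of pairs was 0.080, 0.072 and 0.036. The cause of these moves was not tested. The wells under 1% mouse reads, the sum without GAPDH and the removal of the deepest wells were chosen after seeing the data; the last 2 kept every direction and lost no call. Low depth in cluster 2 limits every cluster value.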
